A study of Gallus gallus with 5 samples.

Results

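The transcription factor HIF1A, its partner ARNT, its regulators EGLN1 and VHL, and 6 hypoxia-responsive genes (LDHA, PGK1, ENO1, VEGFA, PDK1 and BNIP3L) were read across 5 DT40 chicken cell lines that differ in the histone variant H2A.Z. Probes were taken by name: the symbol of the RefSeq transcript each probe is assigned to, or an older name of that symbol, had to be 1 of these 10 genes. This gave 28 of 43603 probes, for 8 of the 10 genes and among 5382 genes named on the array: 7 for HIF1A, 4 each for LDHA, ENO1 and BNIP3L, 3 each for ARNT and PGK1, 2 for PDK1 and 1 for VEGFA. EGLN1 and VHL had no probe that could be named and were not analysed here. PGK1 was found under the gene table's symbol PGK2, which lists PGK1 as an older name. The low HIF1A level of DKO was known when the genes were chosen, so the HIF1A values below are a description and carry no test.

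HIF1A is the oxygen-regulated subunit of the hypoxia-inducible factor. In well-oxygenated cells, prolyl hydroxylases of the EGLN family mark the HIF1A protein, VHL recognises the mark as part of a ubiquitin ligase, and the protein is degraded. In low oxygen the protein accumulates, pairs with ARNT and binds hypoxia response elements at genes of glucose uptake, glycolysis, angiogenesis and mitochondrial turnover. Control of HIF1A by oxygen is therefore mainly at the level of the protein, whereas arrays measure the transcript. The question put to these arrays was whether the transcripts of known HIF1A targets follow that of HIF1A across the lines.

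DT40 is a B cell line from a chicken bursal lymphoma. DKO+5KR-H2A.Z stably expresses an H2A.Z.1 mutant, and so does DKO+H2A-H2A.Z, with the mutant named after the plus sign. DKO+H2A.Z.1 stably expresses H2A.Z.1 itself, DKO lacks the genes of both H2A.Z isoforms, and WT is the wild-type clone cl18. All 5 cultures received tetracycline at 2 µg/ml for 72 hours, per the labels to shut off a tetracycline-repressible H2A.Z.1 transgene. The title and source name of the DKO array say DKO, but the description and the genotype entry carry the wording of the DKO+H2A.Z.1 array. It was grouped by its title. Each line was 1 culture on 1 single-colour Agilent array. There is thus no replicate spread and no test, differences describe these 5 arrays, and their number limits the precision. Both mutant lines shared slide 2, and DKO+H2A.Z.1, DKO and WT shared slide 1, so what parts a mutant line from any of the other 3 cannot be told apart from what parts the slides.

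Levels are log2 of the processed signal minus the 75th percentile of the array's non-control spots, so 0 is the signal of a spot at that percentile. Levels of different probes are not comparable with each other. Between 29137 (DKO) and 30574 (WT) of 43803 non-control spots per array exceeded background clearly by the scanner's flag, and 0 were saturated. The scanner software's error of a single value was 0.144 on the log2 scale for bright probes and up to 0.346 for the dimmest HIF1A probe in DKO, and probes spotted repeatedly had a median SD of 0.050 to 0.064 within an array. Of 16 B cell markers, 12 had a probe and 11 were well above background on all 5 arrays, among them PAX5, EBF1 and CD79B. Their summed linear level, in units of each array's 75th percentile, was 227 in DKO+5KR-H2A.Z, 198 in DKO+H2A-H2A.Z, 193 in DKO+H2A.Z.1, 229 in DKO and 192 in WT. The summed levels of 6 T cell markers with a probe ran from 65.9 (DKO+5KR-H2A.Z) to 83.5 (WT). Of these, CD3E, CD3D, CD8A and CD28 were well above background on all 5 arrays, and CD4 on none. For 4 myeloid markers the sums ran from 7.71 (DKO+H2A.Z.1) to 15.8 (WT), with SPI1, TLR4 and CTSS well above background on all 5 arrays. For 4 erythroid markers they ran from 0.132 (DKO+H2A.Z.1) to 0.233 (DKO+5KR-H2A.Z). HBAD, HBAA and HBBA were well above background on all 5 arrays, and TAL1 on none. For 5 fibroblast markers the sums ran from 0.286 (WT) to 1.17 (DKO). COL1A2 and COL3A1 were well above background on all 5 arrays, and THY1 and PDGFRA on none. Each sum adds the same probes on every array and weights bright probes most, so sums are not comparable between marker sets. BLNK, a B cell marker, was found under the table symbol SH2D6, so which gene was read is not known. The part of these markers in the results below was not tested. H2AFZ, the chicken H2A.Z.1 gene, was 24.8- to 33.4-fold lower than in WT by 1 probe and 82.6- to 99.0-fold lower by the other in the 4 DKO-derived lines, DKO+H2A.Z.1 included. Which part of the transcript these probes cover is not known, so they are a check of neither the transgenes nor the labels.

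The HIF1A transcript was several-fold lower in DKO than in every other line, and the other 4 lines lay close together. In RNA from a whole culture, less transcript per cell and fewer cells with the transcript cannot be told apart. DKO was the lowest of the 5 lines on all 7 HIF1A probes, as on 26.5% of all probes well above background on the 5 arrays. On 6 of its 7 probes, all assigned to the RefSeq transcript NM_204297, HIF1A was well above background on all 5 arrays. The brightest probe, A_87_P058076, had processed signals of 950.7 in DKO+5KR-H2A.Z, 1306.0 in DKO+H2A-H2A.Z, 1425.6 in DKO+H2A.Z.1, 174.8 in DKO and 1143.1 in WT. As levels, A_87_P058076 read -0.50 in DKO+5KR-H2A.Z, -0.18 in DKO+H2A-H2A.Z, -0.13 in DKO+H2A.Z.1, -2.67 in DKO and -0.35 in WT. A_87_P207023 read -0.66 in DKO+5KR-H2A.Z, -0.30 in DKO+H2A-H2A.Z, -0.31 in DKO+H2A.Z.1, -2.79 in DKO and -0.50 in WT. In both, DKO was the low array and no other line lay within 2-fold of it.

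The dimmer probes gave the same order of DKO against the rest. A_87_P121808 read -2.06 in DKO+5KR-H2A.Z, -2.25 in DKO+H2A-H2A.Z, -2.00 in DKO+H2A.Z.1, -4.14 in DKO and -2.37 in WT. A_87_P038201 read -3.04 in DKO+5KR-H2A.Z, -2.91 in DKO+H2A-H2A.Z, -2.85 in DKO+H2A.Z.1, -5.19 in DKO and -2.87 in WT. A_87_P234833 read -3.16 in DKO+5KR-H2A.Z, -2.99 in DKO+H2A-H2A.Z, -2.91 in DKO+H2A.Z.1, -5.35 in DKO and -3.02 in WT. DKO was again below the other 4 lines by more than 2-fold on each. A_87_P285863 read -3.97 in DKO+5KR-H2A.Z, -3.80 in DKO+H2A-H2A.Z, -3.62 in DKO+H2A.Z.1, -6.28 in DKO and -3.85 in WT. A_87_P009685, the dimmest, read -5.10 in DKO+5KR-H2A.Z, -5.14 in DKO+H2A-H2A.Z, -4.85 in DKO+H2A.Z.1, -7.04 in DKO and -5.11 in WT. In DKO that last probe was not well above background, so its folds are bounds.

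**Figure D1:**
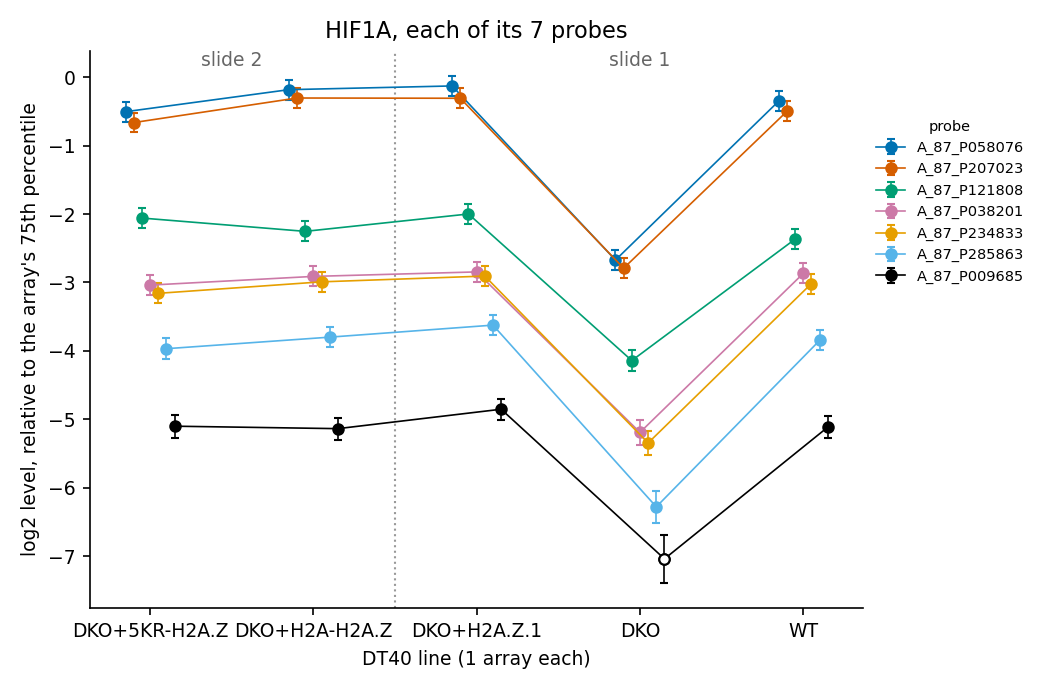
log2 level of HIF1A on each of its 7 probes (y axis, relative to the 75th percentile of the array) in the 5 DT40 lines (x axis, 1 array each). Bars are the scanner software's error of each value, the open circle is not well above background, and the dotted line parts the slides. All 7 probes dip in DKO, and the other 4 lines differ by 0.19 to 0.38 within a probe.

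DKO minus WT was -2.32 on the log2 scale at the median of the 7 HIF1A probes, a 5.01-fold lower level in DKO, with single probes from -2.43 to -1.78. By the dimmest probe DKO was lower by at least 3.51-fold in the processing used. With normexp background correction instead, the 7 probes ran from -1.83 to -0.31. Over all 30963 probes compared, the median of DKO minus WT was 0.10, and 927 probes (2.99%) were at least as far below WT as the median HIF1A probe. DKO+H2A.Z.1 minus DKO was 2.44 at the median HIF1A probe, a 5.42-fold higher level in DKO+H2A.Z.1, with single probes from 2.14 to 2.66. DKO+H2A.Z.1 minus WT was 0.02 to 0.37, so the line expressing H2A.Z.1 lay at or slightly above WT on all 7 probes. Both mutant lines were also higher than DKO, across slides. On the 6 probes well above background on all 5 arrays, DKO+5KR-H2A.Z was higher by 2.08 to 2.31 and DKO+H2A-H2A.Z by 1.89 to 2.49. By the dimmest probe they were higher by at least 3.54-fold and 3.45-fold. Each such bound is against the lowest signal of any probe well above background on the dim array, so it is not strict. The DKO array is common to all these comparisons, so anything particular to that array enters each of them. It was the dimmest array, with a 75th percentile of processed signal of 1114.6 against 1348.5 to 1557.5 on the others. Levels are scaled for this, whereas the processed signals given above for the brightest probe are not.

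Among the 4 lines other than DKO, the HIF1A levels did not separate clearly. Their range within a probe was 0.19 to 0.38 on the log2 scale, and the median range over all 27800 probes well above background on the 5 arrays was 0.36 (quartiles 0.23 and 0.57). With DKO included, the HIF1A range was 2.14 to 2.66, against a median of 0.57 over those probes. By the brightest probe the order, low to high, was DKO, DKO+5KR-H2A.Z, WT, DKO+H2A-H2A.Z and, highest, DKO+H2A.Z.1. The step above DKO was 2.17 on the log2 scale, and the other neighbours in that order differed by 0.16, 0.17 and 0.05, at or under the scanner software's error of a difference, 0.21. DKO+5KR-H2A.Z relative to DKO+H2A.Z.1 was below 0 on all 7 probes, from -0.38 to -0.06, and this difference lies across slides. Within slide 2, DKO+5KR-H2A.Z relative to DKO+H2A-H2A.Z was -0.36 to 0.19, with 5 probes below 0 and 2 above.

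ARNT, the constitutive partner that HIF1A binds to act on DNA, showed no dip in DKO. A_87_P037672 read 0.70 in DKO+5KR-H2A.Z, 0.68 in DKO+H2A-H2A.Z, 0.78 in DKO+H2A.Z.1, 0.94 in DKO and 0.78 in WT. A_87_P200843 read 0.61 in DKO+5KR-H2A.Z, 0.60 in DKO+H2A-H2A.Z, 0.85 in DKO+H2A.Z.1, 0.98 in DKO and 0.76 in WT. A_87_P299233 read -2.61 in DKO+5KR-H2A.Z, -2.81 in DKO+H2A-H2A.Z, -2.72 in DKO+H2A.Z.1, -2.58 in DKO and -2.78 in WT. DKO was the highest of the 5 lines on all 3 ARNT probes. Among DKO+H2A.Z.1, DKO and WT alone, 53.0% of all probes well above background on the 3 had DKO highest. Their DKO minus WT was 0.16 to 0.22 and DKO+H2A.Z.1 minus DKO was -0.15 to -0.13, both close to the medians over all probes, 0.10 and -0.15. The sign is not settled, since the brightest ARNT probe ran from -0.34 to 0.34 in DKO minus WT over 8 settings, which are the processing used here and 7 alternatives to its background correction, scaling, spot filter or values.

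LDHA, which turns pyruvate into lactate and is among the best known HIF1A targets, was bright and nearly level. A_87_P008928 read 4.57 in DKO+5KR-H2A.Z, 4.51 in DKO+H2A-H2A.Z, 4.46 in DKO+H2A.Z.1, 4.52 in DKO and 4.35 in WT. A_87_P266013 read 4.45 in DKO+5KR-H2A.Z, 4.41 in DKO+H2A-H2A.Z, 4.32 in DKO+H2A.Z.1, 4.37 in DKO and 4.21 in WT. A_87_P264678 read 4.13 in DKO+5KR-H2A.Z, 4.08 in DKO+H2A-H2A.Z, 4.11 in DKO+H2A.Z.1, 4.06 in DKO and 3.95 in WT. Here WT, not DKO, was the lowest array, by small margins. A_87_P209213 read 3.03 in DKO+5KR-H2A.Z, 2.95 in DKO+H2A-H2A.Z, 2.91 in DKO+H2A.Z.1, 2.82 in DKO and 2.74 in WT, again with WT lowest. LDHA in DKO minus WT was 0.08 to 0.17 and DKO+H2A.Z.1 minus DKO was -0.06 to 0.09, with both signs among the 4 probes. Over the 8 settings the brightest LDHA probe ran from -0.33 to 0.35 in DKO minus WT, so its sign depends on the scaling.

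PGK1, the glycolytic phosphoglycerate kinase, was slightly higher in DKO by 2 of its 3 probes and level with DKO+5KR-H2A.Z by the other. A_87_P009466 read 5.35 in DKO+5KR-H2A.Z, 5.29 in DKO+H2A-H2A.Z, 5.33 in DKO+H2A.Z.1, 5.63 in DKO and 5.28 in WT. A_87_P236123 read 3.78 in DKO+5KR-H2A.Z, 3.67 in DKO+H2A-H2A.Z, 3.64 in DKO+H2A.Z.1, 3.90 in DKO and 3.65 in WT. A_87_P256723 read 3.66 in DKO+5KR-H2A.Z, 3.46 in DKO+H2A-H2A.Z, 3.44 in DKO+H2A.Z.1, 3.65 in DKO and 3.45 in WT. On none of the 3 did DKO lie below WT or below DKO+H2A.Z.1. PGK1 in DKO minus WT was 0.21 to 0.36 and DKO+H2A.Z.1 minus DKO was -0.30 to -0.21. With other scalings the brightest probe ran from -0.14 to 0.54 in DKO minus WT. In the gene table PGK1 shares its entry with the symbol PGK2, and whether the probes part it from a close relative is not known.

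ENO1, the glycolytic enolase, was highest in DKO on all 4 probes. Among DKO+H2A.Z.1, DKO and WT alone, DKO was highest on 53.0% of all probes well above background on the 3. A_87_P262713 read 7.75 in DKO+5KR-H2A.Z, 7.62 in DKO+H2A-H2A.Z, 7.52 in DKO+H2A.Z.1, 7.95 in DKO and 7.65 in WT. A_87_P009786 read 6.86 in DKO+5KR-H2A.Z, 6.79 in DKO+H2A-H2A.Z, 6.54 in DKO+H2A.Z.1, 6.94 in DKO and 6.65 in WT. A_87_P065581 read 5.55 in DKO+5KR-H2A.Z, 5.40 in DKO+H2A-H2A.Z, 5.34 in DKO+H2A.Z.1, 5.68 in DKO and 5.51 in WT. DKO+H2A.Z.1 was the lowest array on each of them. A_87_P207838 read 4.93 in DKO+5KR-H2A.Z, 4.76 in DKO+H2A-H2A.Z, 4.67 in DKO+H2A.Z.1, 5.02 in DKO and 4.80 in WT, in the same order of highest and lowest. ENO1 in DKO minus WT was 0.17 to 0.30, and DKO+H2A.Z.1 minus DKO was -0.43 to -0.35. Over the 8 settings the brightest ENO1 probe ran from -0.20 to 0.48 in DKO minus WT and from -0.58 to 0.11 in DKO+H2A.Z.1 minus DKO.

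PDK1, the pyruvate dehydrogenase kinase that keeps pyruvate out of the mitochondrial citric acid cycle, lay opposite to HIF1A. A_87_P036946 read 2.66 in DKO+5KR-H2A.Z, 2.34 in DKO+H2A-H2A.Z, 2.55 in DKO+H2A.Z.1, 3.17 in DKO and 2.20 in WT. A_87_P311182 read -0.55 in DKO+5KR-H2A.Z, -0.75 in DKO+H2A-H2A.Z, -0.61 in DKO+H2A.Z.1, -0.04 in DKO and -0.87 in WT. DKO was the highest and WT the lowest array on both probes. DKO minus WT was 0.97 and 0.83, that is 1.96-fold and 1.77-fold higher in DKO, just under the 2-fold threshold used for counts. The 95th percentile of that difference over all probes was 0.96. DKO+H2A.Z.1 minus DKO was -0.62 and -0.57, and DKO+H2A.Z.1 still read 0.35 and 0.26 above WT. PDK1 was above 0 in DKO minus WT under all 8 settings, from 0.48 to 1.15, and past 2-fold under 1 of them, median centring, where both probes were. In DKO+H2A.Z.1 minus DKO the brightest PDK1 probe ran from -0.77 to -0.08 over the 8 settings, so the size of that difference depends on the scaling. Within slide 2, DKO+5KR-H2A.Z relative to DKO+H2A-H2A.Z was 0.32 and 0.20.

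BNIP3L, a receptor of mitophagy on the outer mitochondrial membrane, had DKO lowest on all its probes, which no other target had under this scaling. DKO was also the lowest on 26.5% of all probes well above background on the 5 arrays. The lower quartile of DKO minus WT over all probes was -0.40, so the BNIP3L values below are not unusual. A_87_P036891 read -0.02 in DKO+5KR-H2A.Z, -0.04 in DKO+H2A-H2A.Z, -0.11 in DKO+H2A.Z.1, -0.31 in DKO and 0.08 in WT. A_87_P238113 read -0.35 in DKO+5KR-H2A.Z, -0.24 in DKO+H2A-H2A.Z, -0.23 in DKO+H2A.Z.1, -0.71 in DKO and -0.21 in WT. A_87_P190293 read -0.61 in DKO+5KR-H2A.Z, -0.67 in DKO+H2A-H2A.Z, -0.68 in DKO+H2A.Z.1, -0.76 in DKO and -0.37 in WT. DKO was the lowest and WT the highest array on each. A_87_P199918 read -1.74 in DKO+5KR-H2A.Z, -1.84 in DKO+H2A-H2A.Z, -1.79 in DKO+H2A.Z.1, -1.89 in DKO and -1.64 in WT, in the same order of highest and lowest. The differences were small beside those of HIF1A: DKO minus WT was -0.50 to -0.26, at most 1.41-fold lower in DKO. DKO+H2A.Z.1 minus DKO was 0.07 to 0.47, and DKO+H2A.Z.1 lay between DKO and WT on all 4 probes. The brightest BNIP3L probe was below 0 in DKO minus WT under all 8 settings, from -0.89 to -0.21.

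VEGFA, the angiogenic growth factor, was not well above background on any array. Its single probe, A_87_P035251, had processed signals of 2.1 to 2.5, so no level or fold is given.

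**Figure D2:**
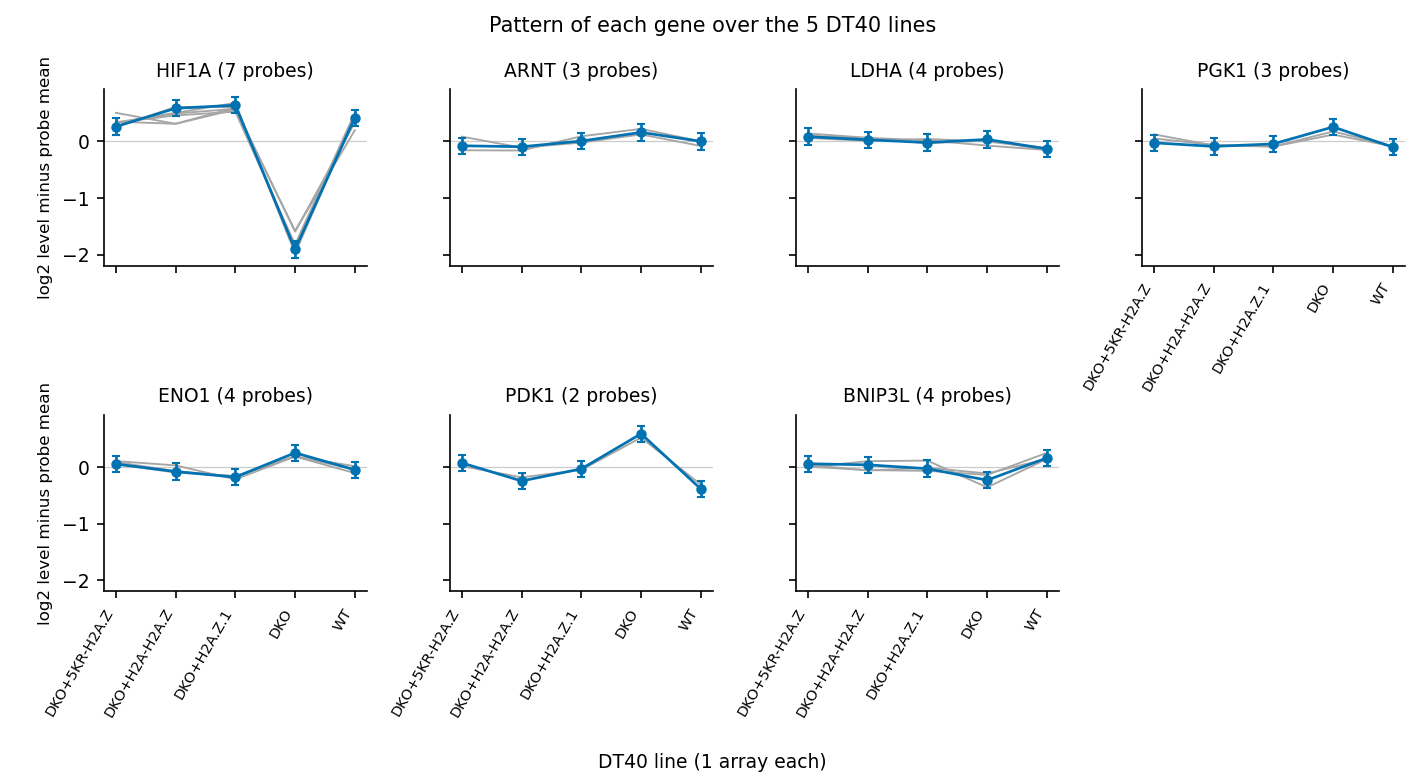
Level of each gene on the log2 scale minus the mean of the probe over the 5 arrays (y axis), by DT40 line (x axis, 1 array each). Blue is the brightest probe with the scanner software's error, and grey lines are the other probes. HIF1A dips by 2.14 to 2.66 in DKO, PDK1 peaks there, and the other genes stay within 0.50 from lowest to highest.

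Counted by probe, 7 of the 27 probes compared lay at least 2-fold below WT in DKO, all of them HIF1A, and 0 lay that far above it. Over all 30963 probes, 12.6% lay that far below WT and 4.62% that far above. Since the low HIF1A level was known when the genes were chosen, that count of 7 supports nothing further. With normexp background correction the count was 4, the dim HIF1A probes falling under 2-fold. For the 20 probes of the other genes the count was 0 in either direction, with a median of 0.19 and a range of -0.50 to 0.97, where 17.2% of all probes were past 2-fold in either direction. These 20 are repeat probes of few genes and do not count as separate members. With 1 probe per gene, 7 genes were compared and HIF1A alone was past 2-fold, so that 0 says little. In DKO+H2A.Z.1 minus DKO, the 7 HIF1A probes were at least 2-fold higher, against 9.63% of all probes higher and 3.05% lower. That count rests on the same low DKO level, known when the genes were chosen, and supports nothing further. Of the other 20 probes, 0 were past 2-fold (median -0.15, range -0.62 to 0.47), where 12.7% of all probes were in either direction.

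**Figure D3:**
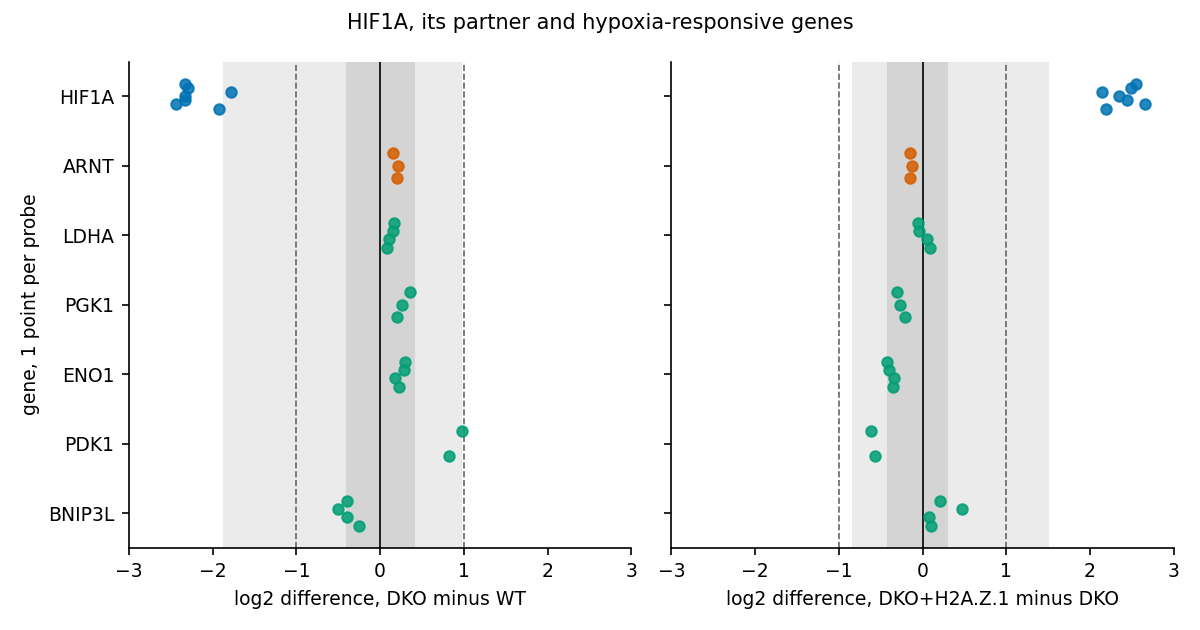
log2 difference of each probe (x axis) by gene (y axis), with DKO minus WT on the left and DKO+H2A.Z.1 minus DKO on the right. The dark band spans the quartiles and the light band the 5th to 95th percentiles of all probes, and dashed lines mark 2-fold. The 7 HIF1A probes lie past 2-fold in both panels and none of the 20 other probes does.

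The order of the lines gave the same picture for the targets, but it depends on the scaling. Of 17 target probes well above background on DKO+H2A.Z.1, DKO and WT, DKO was the lowest of the 3 on 4, all BNIP3L, the highest on 11 and in between on 2. Over all 28153 such probes, DKO was the lowest on 30.8% and the highest on 53.0%. DKO was at least 2-fold below both others on 6 of 6 HIF1A probes and on 0 of the 17 target probes, where 5.93% of all probes were. The 6 HIF1A probes are repeats for 1 gene, chosen with its low level in DKO known, so their count supports nothing further. The 17 are repeat probes of few genes, so these counts of target probes say little beside the shares. The count of 4 became 2 with median centring, 8 in the authors' table, 15 with scaling to spike-in probes, 11 after quantile normalization and 12 after cyclic loess. The share of all probes with DKO lowest moved too, to 23.0% with median centring, 46.3% in the authors' table, 32.5% after quantile normalization, 38.6% after cyclic loess and 76.3% with spike-in scaling. Under spike-in scaling the median of DKO minus WT over all probes was -0.40. The order of the lines is therefore not settled for most targets. No target probe was 2-fold lower in DKO than in WT under any of the 8 settings, the nearest being a BNIP3L probe at -0.996 with spike-in scaling. The brightest HIF1A probe stayed between -2.82 and -1.83. In the comparisons with the other lines, 2 further values passed 2-fold under 1 setting each: a BNIP3L probe, A_87_P238113, at 1.02 in DKO+H2A.Z.1 minus DKO with spike-in scaling, the direction of HIF1A, and the brightest PDK1 probe at -1.04 in DKO+H2A-H2A.Z minus DKO with median centring, the opposite direction.

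Comparisons without DKO held no 2-fold difference among the members. The 27 probes compared stand for 7 genes, so the counts of 0 below say little. In DKO+H2A.Z.1 minus WT, 0 of 27 probes were past 2-fold, against 7.02% of all probes. For DKO+5KR-H2A.Z relative to DKO+H2A-H2A.Z, on slide 2, 0 were, against 4.73%. Across slides, 0 were past 2-fold for DKO+5KR-H2A.Z relative to DKO+H2A.Z.1, against 3.57%, and 0 for DKO+H2A-H2A.Z relative to DKO+H2A.Z.1, against 3.76%. In each mutant line minus DKO, the 7 HIF1A probes were higher by at least 2-fold and no other member probe was past it. Of all probes, 7.61% were that far higher for DKO+5KR-H2A.Z and 11.1% for DKO+H2A-H2A.Z. The low HIF1A level of DKO was known beforehand, so these counts of HIF1A probes support nothing further.

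The wider pathway was read from lists of genes known for their roles, each gene by its brightest probe and without the 10 genes above. Of 22 genes of oxygen sensing and HIF subunits, 6 had a probe and 5 were compared. In DKO minus WT, 0 of the 5 were past 2-fold, where 11.1% of named genes were lower and 4.21% higher. Among so few genes that count says little. The median was 0.26, against 0.15 over 4399 named genes. ELOC, a subunit of the VHL ligase found under the table symbol TCEB1, read 0.26 on its brightest probe, but its other probe, also well above background on all 5 arrays, read -1.21. The ELOC probes also disagree in DKO+H2A.Z.1 minus DKO, at -0.36 and 0.71. RBX1, the RING subunit of that ligase, read -0.44. HSP90AA1, the chaperone that stabilises HIF1A, read 0.29, RACK1, which promotes its degradation, 0.43, and CITED2, which competes with HIF1A for coactivators, -0.02. EPAS1, the alpha subunit of HIF-2, was not well above background on any array. In DKO+H2A.Z.1 minus DKO the 5 genes compared had a median of -0.42, against -0.21 over 4333 named genes. Of them 0 were past 2-fold, where 2.63% of named genes were lower and 8.1% higher. By brightest probe RBX1 alone lay above 0, at 0.38. Both medians depend on the scaling. In DKO minus WT the median was -0.24 with spike-in scaling and 0.02 with cyclic loess. In DKO+H2A.Z.1 minus DKO it was 0.13 and 0.04. Over the 8 settings RBX1 kept its sign in both comparisons, and ELOC, HSP90AA1, RACK1 and CITED2 changed sign in DKO minus WT.

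Of 30 genes of glycolysis and glucose uptake, 19 beyond those above had a probe. In DKO minus WT, 0 of 18 were past 2-fold in either direction, where 11.1% of named genes were lower and 4.21% higher. Of the 18, 14 lay above 0, as did 60.9% of named genes, and the median was 0.29. The glucose transporter SLC2A1 read 0.53, hexokinase HK2 0.34, triosephosphate isomerase TPI1 0.56, GAPDH 0.29 and the pyruvate kinase PKM 0.29. PKM was found under the table symbol PKLR, the name of another pyruvate kinase gene, so which of the pair was read is not known. PFKM, a phosphofructokinase, read 0.25 on its brightest probe, but its other probes, not well above background in DKO, went the other way. DKO lay below WT by at least 1.58-fold on A_87_P227783, 1.78-fold on A_87_P054106 and 2.17-fold on A_87_P232288. In DKO+H2A.Z.1 minus DKO, 0 of 17 were past 2-fold, where 2.63% of named genes were lower and 8.1% higher. Of the 17, 15 lay below 0, as did 66.5% of named genes, and the median was -0.37. The direction depends on the scaling: the median in DKO minus WT was -0.20 with spike-in scaling, -0.06 with cyclic loess and -0.01 with quantile normalization. For DKO+H2A.Z.1 minus DKO it was 0.18 with spike-in scaling, under which 16 of 17 lay above 0 and 1 was past 2-fold, and 0.02 with cyclic loess.

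Of 39 other hypoxia-response targets, 16 beyond those above were compared. In DKO minus WT, 1 lay at least 2-fold below WT and 3 lay that far above, with a median of 0.52, where 11.1% of named genes were lower and 4.21% higher. PLOD1, a lysyl hydroxylase of collagen, read -2.42 in DKO+5KR-H2A.Z, -0.40 in DKO+H2A-H2A.Z, -1.21 in DKO+H2A.Z.1, -3.42 in DKO and -1.01 in WT. It was 5.32-fold lower in DKO than in WT and 4.64-fold higher in DKO+H2A.Z.1 than in DKO on its single probe, and stayed past 2-fold under all 8 settings. PLOD1 was the one gene of these lists at least 2-fold low in DKO against both WT and DKO+H2A.Z.1 on any probe compared. Of all probes well above background on these 3 arrays, 5.93% were that low against both, so 1 such gene says little. Unlike HIF1A, PLOD1 was 4.06-fold lower in DKO+5KR-H2A.Z than in DKO+H2A-H2A.Z.

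The 3 genes past 2-fold in the opposite direction were HMOX1, MXI1 and MAFF. HMOX1, which breaks down haem and also answers oxidative stress, read -1.32 in DKO+5KR-H2A.Z, -1.35 in DKO+H2A-H2A.Z, -1.30 in DKO+H2A.Z.1, -0.42 in DKO and -1.83 in WT, 2.65-fold higher in DKO than in WT. MXI1, an antagonist of MYC, read -0.76 in DKO+5KR-H2A.Z, -0.91 in DKO+H2A-H2A.Z, -0.97 in DKO+H2A.Z.1, 0.15 in DKO and -1.00 in WT, 2.22-fold higher in DKO. MAFF, a small MAF transcription factor, read 1.56 in DKO+5KR-H2A.Z, 1.64 in DKO+H2A-H2A.Z, 1.52 in DKO+H2A.Z.1, 2.72 in DKO and 1.20 in WT, 2.87-fold higher in DKO. In all 3, DKO was the highest of the 5 lines, which follows in part from their choice as higher in DKO than in WT. Of all probes well above background on DKO+H2A.Z.1, DKO and WT, 53.0% had DKO the highest of these lines. In DKO+H2A.Z.1 minus DKO, 3 of 16 lay at least 2-fold below DKO (MXI1 at -1.11, MAFF at -1.19 and the transcription factor KLF6 at -1.23) and 1, PLOD1, that far above, where 2.63% of named genes were lower and 8.1% higher. The other MXI1 probe, also well above background on all 5 arrays, read -0.88 in that comparison, under 2-fold. The median of the 16 in that comparison was -0.48. The medians depend on the scaling: with spike-in scaling they were 0.03 in DKO minus WT and 0.07 in DKO+H2A.Z.1 minus DKO. With spike-in scaling 0 lay that far below DKO in DKO+H2A.Z.1, as in the authors' table, and in DKO minus WT 3 were then lower and 1, MAFF, higher.

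**Figure D4:**
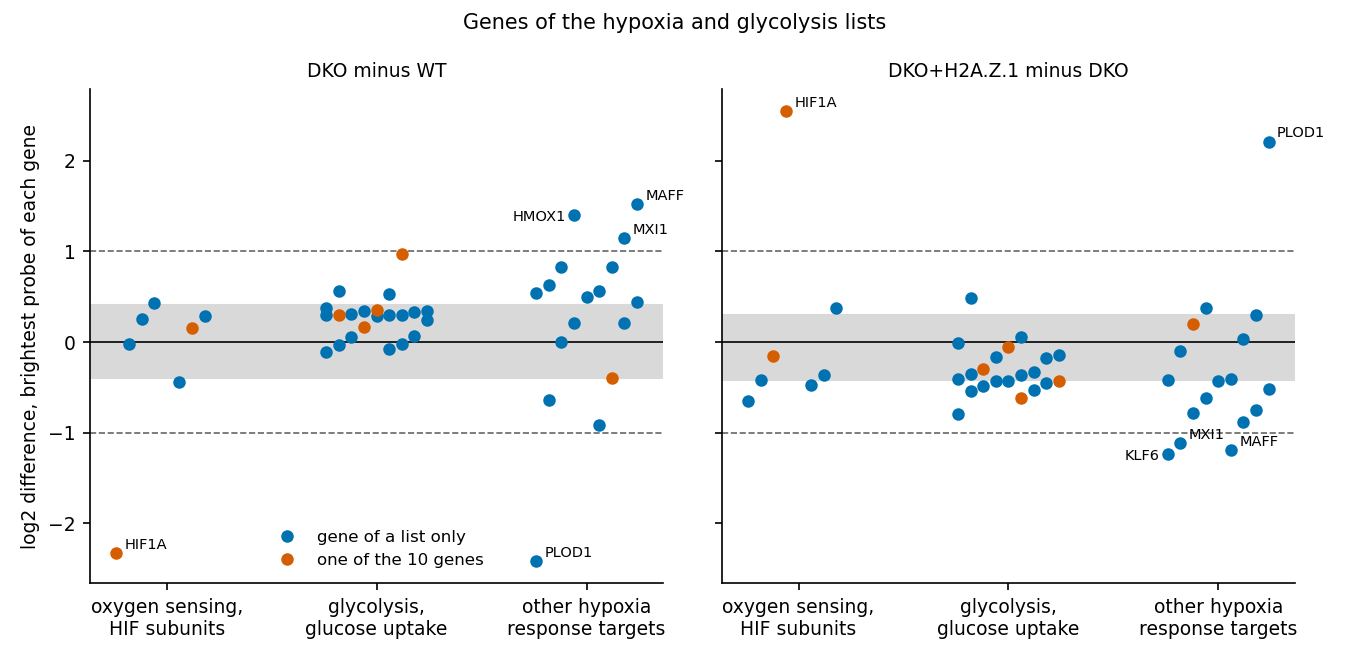
log2 difference of each listed gene, read from its brightest probe (y axis), in 3 lists (x axis), with DKO minus WT on the left and DKO+H2A.Z.1 minus DKO on the right. The band spans the quartiles of all probes, dashed lines mark 2-fold, and genes past 2-fold are named. HIF1A and PLOD1 lie at -2.32 and -2.41 in DKO minus WT, apart from the other genes.

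Genes most like HIF1A in pattern were sought among the named genes. None of the nearest 8 was on these lists, but the lists, of 22, 30 and 39 genes, hold few of the genes compared. The absence of listed genes from the 8 therefore carries no weight. Likeness was the root mean square difference of log2 levels, each centred on its own mean over the 5 arrays, among 4109 genes well above background on all 5. The nearest 8 were ARHGAP25 and COMMD8 at 0.10, CYP46A1 at 0.11, TTC30B at 0.12, LYRM2 and MTX3 at 0.13, and POMGNT2 and GNB5 at 0.15. Their DKO minus WT ran from -2.61 (COMMD8) to -2.00 (GNB5), and their DKO+H2A.Z.1 minus DKO from 2.28 (GNB5) to 2.94 (LYRM2). One of 2 ARHGAP25 probes and 1 of 3 CYP46A1 probes did not have DKO lowest. Among the genes of the set, BNIP3L ranked 774 (0.85), LDHA 1546 (0.98), ARNT 2078 (1.04), PGK1 2647 (1.09), ENO1 2729 (1.098) and PDK1 3892 (1.27). The 5 values of each gene share the same 5 arrays, so the ranking is dominated by the DKO array.

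**Figure D5:**
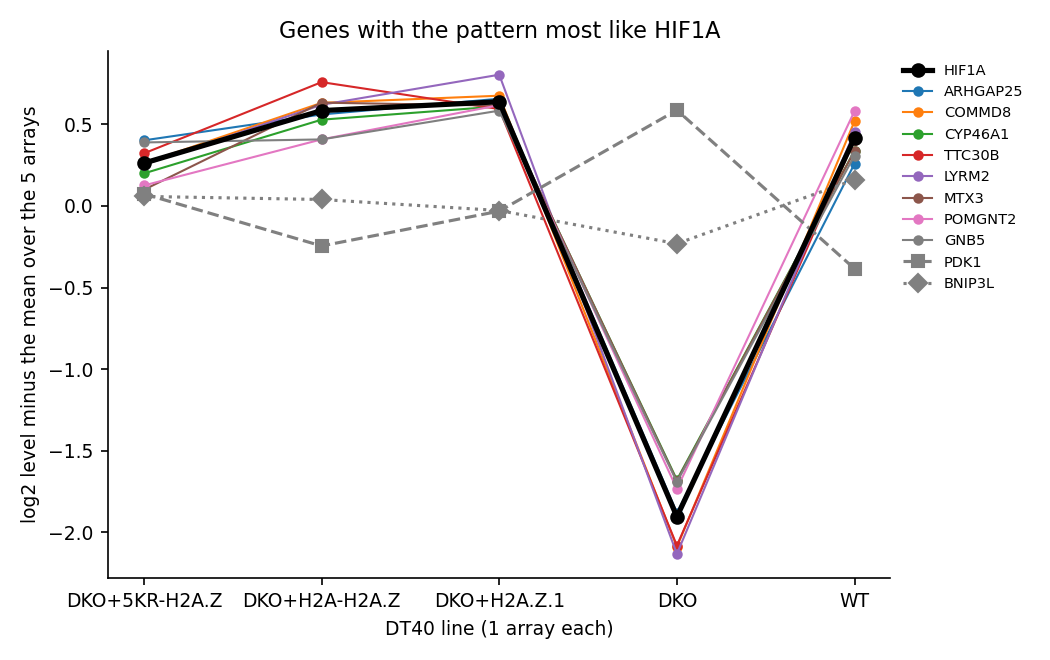
log2 level minus the mean over the 5 arrays (y axis) by DT40 line (x axis, 1 array each) for HIF1A, the 8 genes nearest to it, and PDK1 and BNIP3L, each by its brightest probe. The 8 genes follow HIF1A with root mean square differences of 0.10 to 0.15, against 0.85 for BNIP3L and 1.27 for PDK1.

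Of the neighbours of HIF1A on its chromosome that are given here, RTN1 alone passed 2-fold in DKO minus WT on a probe well above background. Of named genes, 11.1% were at least 2-fold lower in DKO minus WT and 8.1% that far higher in DKO+H2A.Z.1 minus DKO. One such gene among so few neighbours therefore says little. Of the 3 nearest genes with a named probe on one side, WDR89 read -0.31 and -0.27 in DKO minus WT on its 2 probes, and RHOJ and ESR2 were not well above background on any array. On the other side, JKAMP read 0.43. RTN1, a reticulon of the endoplasmic reticulum, read -1.05 on its brightest probe in DKO minus WT and 1.46 in DKO+H2A.Z.1 minus DKO. Its other 2 probes were not well above background in DKO. By these, RTN1 was lower in DKO than in WT by at least 1.31-fold and 2.21-fold, and higher in DKO+H2A.Z.1 than in DKO by at least 1.55-fold and 2.95-fold. The closest protein-coding genes on either side had no named probe and were not analysed here.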

How the data were processed

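RNA from 5 DT40 cultures, 1 per line, was hybridised to single-colour Agilent arrays from 100 ng each, per the labels' protocols. Images were read by Agilent Feature Extraction 11.5.1.1 according to the headers. The deposited files hold, per the file headers, the background-subtracted intensity of every spot on a linear scale (processed signal), its error and its quality flags. The intensity in the authors' value table is that signal times 1 constant per array, from 1.031 (DKO+H2A.Z.1) to 1.227 (DKO), as tested on spots of at least 1000, and the origin of the constant is unknown here. Its column medians were 117.4 in DKO+5KR-H2A.Z, 121.7 in DKO+H2A-H2A.Z, 119.7 in DKO+H2A.Z.1, 92.1 in DKO and 119.2 in WT; it is neither on a log scale nor centred.

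From log2 signals the 75th percentile over the non-control spots of the same array was taken off. Non-uniform spots and population outliers, 2 to 37 on an array, were dropped, and repeat spots of a probe were averaged. Naming was done by unversioned RefSeq accession in a gene table of assembly GRCg7b, which gave a name to 11935 of 43603 probes (5382 genes) and left 1125 RefSeq probes unnamed. The files' annotation is for another assembly, so no coordinates are given. Comparisons used probes that were well above background on 1 or both of the arrays. Where it was not on the dim array, the fold is a bound against the higher of its own signal and the lowest signal well above background there. That lowest signal is taken over all probes of the array, so no such bound in this text is strict for a single spot. Counts use a threshold of 2-fold. Genes outside the set were represented by their brightest probe over the 5 arrays.

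The members, gene lists and tests were chosen with earlier results of these data known. Named genes are the 10 members, listed genes past 2-fold in DKO minus WT or DKO+H2A.Z.1 minus DKO (at most 8 per list), 3 neighbours on each side of HIF1A (1 of them is not reported here) and the 8 nearest patterns; other listed genes were picked as examples after their values were seen. The steps were tested on simulated data. Alternatives were normexp with an offset of 50 (on the median spot and background intensity, since the mean is not in the files used), quantile normalization, median centring, cyclic loess, scaling to 8 spike-in probes, the authors' table, marked spots kept, other filters on dim probes, thresholds of 1.5-fold and 3-fold, the median over a gene's probes, and 1 probe per gene. Python 3.11.15, numpy 2.4.6, pandas 2.3.3, matplotlib 3.10.9, R 4.3.3 and limma 3.58.1 were used.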

Additional observations from a re-analysis of the deposited data

How the results depend on the processing

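No paired analysis was possible because each line has 1 array. The brightest HIF1A probe kept DKO more than 2-fold below both WT and DKO+H2A.Z.1 under every setting run. DKO minus WT was -1.83 with normexp and -2.82 with spike-in scaling, and DKO+H2A.Z.1 minus DKO was 2.10 with normexp, 3.09 with spike-in scaling and 2.78 in the authors' table. DKO+5KR-H2A.Z relative to DKO+H2A-H2A.Z was -0.56 with spike-in scaling, still under 2-fold. With normexp, 4 of the members' probes were at least 2-fold apart in DKO minus WT, in DKO+5KR-H2A.Z minus DKO and in DKO+H2A-H2A.Z minus DKO, in place of 7. The HIF1A probes then ran from -1.83 to -0.31 in DKO minus WT and from 0.31 to 2.10 in DKO+H2A.Z.1 minus DKO. With 1 probe per gene the count was 1 in each of these and in DKO+H2A.Z.1 minus DKO, which follows from HIF1A then being 1 value. Target probes with DKO lowest of 3, 4 of 17 in the processing used, were 2 with median centring, 8 in the authors' table, 15 with spike-in scaling, 11 after quantile normalization and 12 after cyclic loess, and the cause was not tested. The other 117 of 135 values moved by less than the scanner software's error or, for counts, by at most 1.5 times. Some of these could not move: filters on dim probes leave the brightest HIF1A probe unchanged, and the stricter filter is already the one used for the target order. Many others are counts of 0 that stayed 0. The tally is therefore no measure of agreement. Among the counts that moved by at most 1.5 times, median centring gave 9 in DKO minus WT, with both PDK1 probes added, and 8 in DKO+H2A-H2A.Z minus DKO, and spike-in scaling gave 8 in DKO+H2A.Z.1 minus DKO, with a BNIP3L probe added. Dim probes limit what can be said of VEGFA and of the seventh HIF1A probe in DKO.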

Other observations

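Values of a few listed genes that are not given above follow. P4HA2, a subunit of the collagen prolyl hydroxylase, read -1.43 in DKO+H2A.Z.1 relative to WT (log2, brightest probe) and was past 2-fold under 7 of 8 settings. In DKO minus WT the P4HA2 probes read -0.91 and -2.39, the brighter one under 2-fold, and the 3 KLF6 probes read 0.83, 0.92 and 1.08, the brightest under 2-fold. PFKFB4, which sets the level of fructose 2,6-bisphosphate, was higher in DKO+5KR-H2A.Z than in DKO by 1.13, across slides. CXCR4, the chemokine receptor, read -0.63 in DKO minus WT and 0.37 in DKO+H2A.Z.1 minus DKO, the same signs as HIF1A and under 2-fold in both. Over the 8 settings it ran from -1.13 to -0.44 in DKO minus WT, past 2-fold under 1. Of all probes well above background on DKO+H2A.Z.1, DKO and WT, 30.8% had DKO the lowest of these lines.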
